A study of Mus musculus with 24 samples.

Results

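Transcripts of 7 genes of the MHC class II antigen presentation machinery were measured in the frontal cortex of WT and GFAP-IL6 mice. These genes were H2-Aa, H2-Ab1 and H2-Eb1, which encode class II chains, Cd74, which encodes the invariant chain, H2-DMa and H2-DMb1, which encode the chains of the peptide exchange factor H2-DM, and Ciita, the class II transactivator. Only RNA was measured, so the text does not say which chains reached the cell surface. They were taken by gene symbol from the 33000 genes of the count table, as a list drawn up with earlier results of these data known, and all 7 were found. In GFAP-IL6 cortex the transcripts of H2-Aa, H2-Ab1 and H2-Eb1 were about 3 times as abundant as in WT cortex, whereas H2-DMa was at nearly the same level in both genotypes and Ciita was close to the limit of detection.

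All mice were 3 months old. The 3 WT mice were C57BL/6, and the 3 GFAP-IL6 mice were homozygous for a transgene that drives Il6, a cytokine gene, from the promoter of Gfap, an astrocyte gene. Neither genotype received a treatment, and the labels do not give the sex of the mice or the background strain of the transgenic line. From the RNA of each mouse 4 libraries were made by 3'Pool-seq, a method that reads the 3' ends of polyadenylated transcripts. The libraries were tagmented from 2 ng or 1 ng of amplified cDNA in sets named A and B (below 2ngA, 2ngB, 1ngA and 1ngB). In 3'Pool-seq, samples are pooled after reverse transcription, and amplification and tagmentation are done on the pool. The sources used here do not say which mice shared a pool.

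Class II molecules are heterodimers of an alpha and a beta chain that present peptides from endocytosed proteins to CD4+ T cells. The invariant chain occupies the groove during assembly until endosomal proteases, among them cathepsin S, degrade it, after which H2-DM exchanges the remaining fragment for an antigenic peptide. Transcription of class II genes depends on Ciita, which is recruited to the X and Y boxes of their promoters by the RFX, CREB and NF-Y proteins. In the brain parenchyma class II expression is low at rest and is known mainly from activated microglia and from macrophages at the borders of the tissue.

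On mm10, with the gene models of GENCODE vM21, the chain genes lie close together on chromosome 17, with H2-DMa at chr17:34119541-34139101, H2-DMb1 at chr17:34153072-34160230, H2-Ab1 at chr17:34257689-34269419, H2-Aa at chr17:34282744-34287823 and H2-Eb1 at chr17:34305867-34316674. H2-Aa is on the minus strand and the others are on the plus strand. Ciita lies at chr16:10480059-10528418 on the plus strand. The 3' end of Ciita lies within Dexi, a gene on the other strand, and the 3' ends of the other 6 genes lie within no other gene. RefSeq promoter sequences (GRCm38.p6) were matched for 4 of the 7 genes, H2-Aa, H2-Eb1, H2-DMa and H2-DMb1. The 150 bases before their transcription starts are shown with their full matches to the patterns of known class II elements. No relation between these letters and the response was tested. They are written 5' to 3' on the strand of the gene, and capitals mark matches to the X box core CCNAGNNAC or the Y box CTGATTGG.
H2-Aa (chr17:34287824-34287973, minus strand): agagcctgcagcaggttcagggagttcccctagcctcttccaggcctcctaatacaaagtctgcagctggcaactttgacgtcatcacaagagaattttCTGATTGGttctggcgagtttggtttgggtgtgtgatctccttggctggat
H2-Eb1 (chr17:34305717-34305866, plus strand): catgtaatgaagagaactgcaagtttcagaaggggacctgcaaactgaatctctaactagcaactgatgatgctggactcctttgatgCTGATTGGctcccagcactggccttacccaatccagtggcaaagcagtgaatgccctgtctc
H2-DMb1 (chr17:34153041-34153190, plus strand): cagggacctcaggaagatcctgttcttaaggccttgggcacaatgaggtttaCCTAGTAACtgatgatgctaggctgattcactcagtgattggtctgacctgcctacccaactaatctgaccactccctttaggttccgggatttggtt
H2-DMa, upstream start (chr17:34122682-34122831, plus strand): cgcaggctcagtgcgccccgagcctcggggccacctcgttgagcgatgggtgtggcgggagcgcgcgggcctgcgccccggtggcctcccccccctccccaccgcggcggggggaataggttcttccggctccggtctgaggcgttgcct

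On either strand of the 250 bases before the start, a Y box match was present in 3.83% of all 32851 promoters and an X box core match in 14.5%, and 0.6% held both. The Y box match began 51 bases before the start of H2-Aa and 62 bases before that of H2-Eb1, on the strand of the gene in both. H2-Aa also had an X box core match that began 180 bases before the start, outside the stretch shown. In H2-DMb1 the X box core match began 98 bases before the start, and no full Y box match was found. Neither of the 2 H2-DMa starts searched had a match to either motif in the same window. Both starts lie inside the gene model given above, which holds 8 transcripts and overlaps Brd2 on the other strand. Other starts of H2-DMa were not searched, so its class II promoter may lie outside these windows. These matches describe the letters of the windows only. Only full matches were sought, so a box whose letters differ from the pattern is not marked, and a window without a match may still hold one. Whether any match is a working X or Y box was not tested.

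The libraries held between 1524165 and 12256374 counted reads, and the 7 genes together took 52 to 1164 of them. Summed over 4 libraries, totals per mouse were 7852743 to 37582644, with WT mouse 3 the shallowest and GFAP-IL6 mouse 3 the deepest. Levels are CPM, the reads of a gene scaled to the library total, corrected by TMM (TMM CPM), and the mouse was the replicate, with n = 3 per genotype. As a check of the genotypes, Il6 was at 0.26, 0.166 and 0 CPM in WT mice 1 to 3 and at 3.16, 1.58 and 4.23 CPM in GFAP-IL6 mice 1 to 3. WT mouse 3 stood apart in Ttr, a choroid plexus gene, which was at 4038 CPM against 74.5 to 743 CPM in the other 5 mice. The cortical neuron markers Slc17a7 and Tbr1 were expressed in every mouse, at 95.7 to 123 and 63.4 to 85.8 CPM.

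H2-Aa, the alpha chain of the I-A molecule, was at 5.36, 4.32 and 1.31 CPM in WT mice 1 to 3 and at 11.4, 11.7 and 15.5 CPM in GFAP-IL6 mice 1 to 3. The genotypes did not overlap in H2-Aa, and WT mouse 3 was far below the other WT mice, with 10 reads in all. The mean was 3.67 ± 2.10 CPM in WT and 12.9 ± 2.32 CPM in GFAP-IL6 (SD, n = 3 each). The log2 fold change was 1.70 (SE 0.27, 95% interval 1.11 to 2.28, adjusted p = 0.00238), by edgeR's quasi-likelihood test with Benjamini-Hochberg adjustment over 14621 genes.

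H2-Ab1, the beta chain that pairs with H2-Aa, was at 5.88, 4.93 and 3.15 CPM in WT mice 1 to 3 and at 15.7, 11 and 15.9 CPM in GFAP-IL6 mice 1 to 3. The genotypes did not overlap, and WT mouse 3 was again the lowest. The log2 fold change was 1.54 (SE 0.21, 95% interval 1.1 to 1.98, adjusted p = 0.000502, edgeR). H2-Eb1, the beta chain of the I-E molecule, was at 4.37, 5.26 and 4.59 CPM in WT mice and at 10.7, 12.2 and 18.0 CPM in GFAP-IL6 mice. Here the WT mice lay close together, with an SD of 0.465 CPM, and GFAP-IL6 mouse 3 was the highest. The log2 fold change was 1.55 (SE 0.20, 95% interval 1.11 to 1.98, adjusted p = 0.000414, edgeR). In these bulk samples, more cells that express a gene and more RNA per cell cannot be told apart.

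Cd74, the gene of the invariant chain (chr18:60803848-60812652, plus strand), was at 2.45, 2.0 and 0.656 CPM in WT mice 1 to 3 and at 3.38, 3.45 and 4.44 CPM in GFAP-IL6 mice 1 to 3. The genotypes did not overlap, and the 5 reads of WT mouse 3 set the lower end. A log2 fold change of 1.04 (SE 0.33, 95% interval 0.34 to 1.74) did not pass the test (adjusted p = 0.205, edgeR). Cd74 did pass in 2 of 12 alternative analyses. These were the fit without a filter on low counts (adjusted p = 0.0226) and limma-voom over all 24 libraries with the mouse as a random block (log2 fold change 1.3, adjusted p = 0.00655), and over the 12 alternatives the adjusted p ranged from 0.00655 to 0.783. Without WT mouse 3 the log2 fold change of Cd74 was 0.78 (adjusted p = 0.301, edgeR).

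H2-DMa, the alpha chain of H2-DM, was at 28.4, 28.7 and 22.8 CPM in WT mice 1 to 3 and at 26.6, 28.3 and 29.8 CPM in GFAP-IL6 mice 1 to 3. The genotypes overlapped, with WT mice 1 and 2 above GFAP-IL6 mice 1 and 2. The log2 fold change was 0.08 (adjusted p = 0.924, edgeR), and its 95% interval of -0.17 to 0.32 lay below the fold change threshold of 1. H2-DMb1, the beta chain of H2-DM, was at 2.86, 2.0 and 2.49 CPM in WT mice and at 3.38, 3.17 and 5.08 CPM in GFAP-IL6 mice. The genotypes did not overlap in the summed libraries, although GFAP-IL6 mice 1 and 2 were close to WT mouse 1. Within single library sets H2-DMb1 was without overlap in only 1 of 4. A log2 fold change of 0.70 (SE 0.27, 95% interval 0.11 to 1.28) did not pass the test (adjusted p = 0.411, edgeR). Over 13 alternative analyses H2-DMa had log2 fold changes of at most 0.13 and H2-DMb1 of 0.41 to 0.86, and neither passed in any of them. Of the last 300 nt of H2-DMb1 transcripts, 253 nt aligned to the neighbouring gene H2-DMb2 at 94.9% identity, so reads of the pair are less certain. H2-DMb2 itself was at 0.104 to 0.525 CPM in WT and 0.527 to 0.72 CPM in GFAP-IL6 mice.

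Ciita had 2, 7 and 0 reads in WT mice 1 to 3 and 0, 1 and 5 reads in GFAP-IL6 mice 1 to 3, and 19 of the 24 libraries had none. Of the 7 reads of WT mouse 2, 6 came from its 1ngA library, and the 5 reads of GFAP-IL6 mouse 3 all came from its 1ngB library. The reads thus fell in 5 libraries, with no genotype above the other. Pooled over mice, Ciita had 9 of 45187378 reads in WT (0.199 CPM, exact 95% Poisson interval 0.0911 to 0.378) and 6 of 67758101 in GFAP-IL6 (0.0886 CPM, interval 0.0325 to 0.193). These intervals overlap, and they cover counting error only, since PCR reads without molecular identifiers are not independent molecules. Ciita did not pass the filter on low counts and was not tested, and a change of its transcript was not detectable from these counts. Dexi, in which its 3' end lies, had 143 to 712 reads per mouse. The strand setting of the counting is not given. Whether reads of Ciita were left out or given to Dexi because of this overlap was not tested.

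Of the 7 genes, 6 passed the filter in the summed libraries, and 3 of these (H2-Aa, H2-Ab1 and H2-Eb1) were differentially expressed genes (DEGs), defined by an adjusted p under 0.05 together with a log2 fold change beyond 1 in either direction. All 3 were higher in GFAP-IL6 mice. Of all 14621 genes tested, 1.2% were DEGs with higher and 0.0274% with lower expression in GFAP-IL6 mice. The genotypes did not overlap, with GFAP-IL6 higher, for 5 of the 6 genes (all but H2-DMa) and for 8.43% of all genes tested. The median log2 fold change was 1.29 over the 6 genes and -0.01 over all genes tested.

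**Figure D1:**
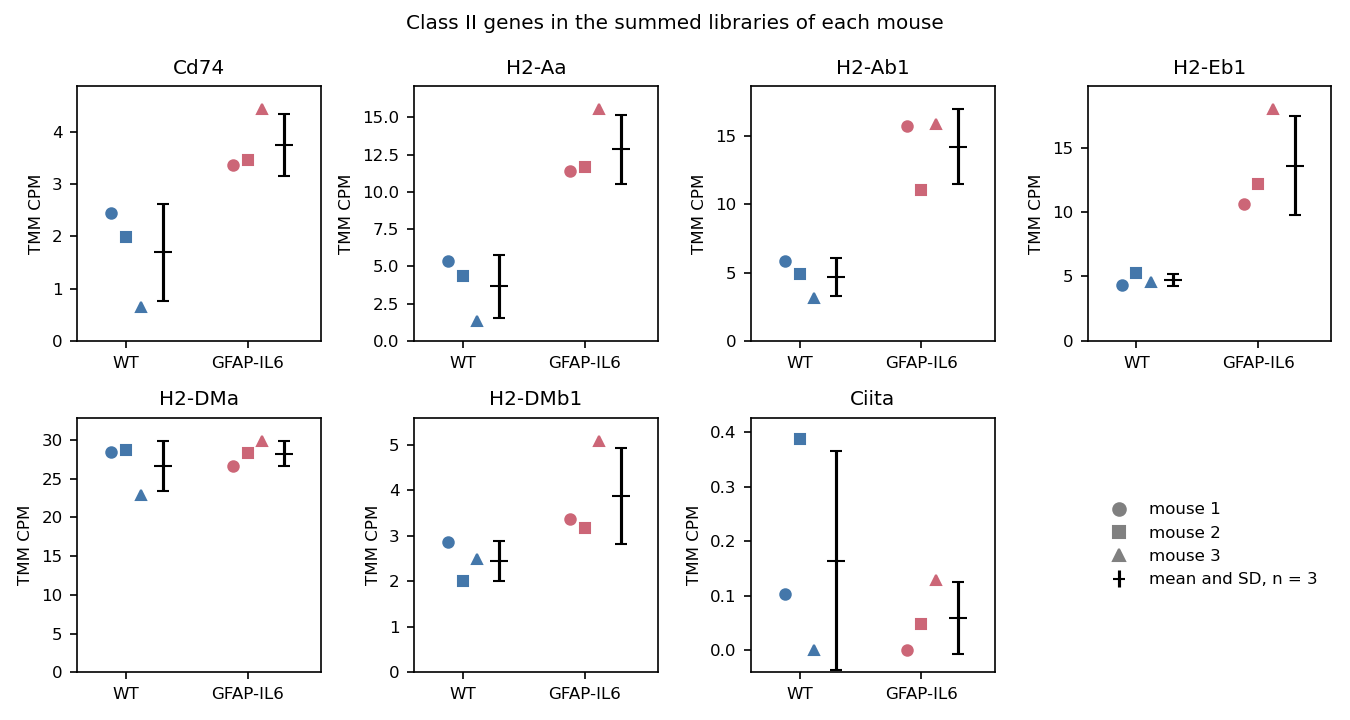
TMM CPM of each class II gene in the summed libraries of each mouse, in WT (blue) and GFAP-IL6 (red), with the mean and SD of 3 mice as black bars and 1 linear axis per gene. The GFAP-IL6 mice lie above all WT mice for H2-Aa, H2-Ab1, H2-Eb1, Cd74 and H2-DMb1, overlap them for H2-DMa, and are near 0 for Ciita as are the WT mice.

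The levels can also be set out as shares and ratios within a mouse, which restate the same differences, since H2-DMa itself was at 26.6 CPM in WT and 28.2 CPM in GFAP-IL6 mice on average. H2-DMa took 57.4, 60.3 and 65.2% of the reads of the 7 genes in WT mice 1 to 3 and 37.4, 40.5 and 33.5% in GFAP-IL6 mice 1 to 3. H2-Aa, H2-Ab1 and H2-Eb1 each took a larger share in every GFAP-IL6 mouse than in any WT mouse. On the log2 scale, with 1 read added to each gene, the ratio of H2-Aa to H2-DMa reads was -2.39, -2.71 and -3.99 in WT mice and -1.22, -1.27 and -0.94 in GFAP-IL6 mice. The difference between genotypes in this log2 ratio was 1.89, against 1.53 for the ratio of H2-Ab1 to H2-DMa and 1.38 for that of H2-Eb1 to H2-DMa. The ratios were chosen with the levels known and are not separate evidence.

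Among H2-Aa, H2-Ab1 and H2-Eb1 the proportions were less clear. The log2 ratio of H2-Eb1 to H2-Ab1 reads was -0.42, 0.09 and 0.53 in WT mice 1 to 3 and -0.56, 0.14 and 0.18 in GFAP-IL6 mice 1 to 3, so the genotypes overlapped (exact permutation p = 0.7). The log2 ratio of H2-Ab1 to H2-Aa also overlapped (exact permutation p = 0.5), with WT mouse 3 at 1.18 and the other 5 mice between -0.08 and 0.46. For Cd74 the log2 ratio to H2-Aa was -1.12, -1.09 and -0.87 in WT mice and -1.72, -1.74 and -1.80 in GFAP-IL6 mice. Cd74 was thus lower relative to H2-Aa in every GFAP-IL6 mouse than in any WT mouse, with a mean difference of -0.73 on the log2 scale (two-sided exact permutation p = 0.1, the smallest value that 3 mice against 3 allow). In WT mouse 3 this ratio rests on 5 reads of Cd74 and 10 of H2-Aa. These ratios too were chosen with the levels known and are not separate evidence.

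The comparison was repeated in each set of 6 libraries, which share the mice and their RNA and so are not independent. H2-Aa was a DEG in each of the 4 sets, with log2 fold changes of 1.6 in 2ngA, 1.67 in 2ngB, 1.66 in 1ngA and 1.74 in 1ngB, and its genotypes overlapped in none. H2-Ab1 was likewise a DEG in each set, with log2 fold changes of 1.46, 1.59, 1.59 and 1.47 in the same order. The log2 fold change of H2-Eb1 varied more, from 1.11 in 2ngA, where it did not pass (adjusted p = 0.0737, edgeR), to 2.18 in 1ngA (adjusted p = 0.000101, edgeR). In 2ngB, H2-Eb1 was a DEG although GFAP-IL6 mouse 1, at 4.66 CPM, was below WT mouse 2, at 4.99 CPM. Cd74, H2-DMa and H2-DMb1 were DEGs in no set by edgeR or DESeq2, although 4 of their 11 edgeR tests fell under 0.05 before adjustment. Cd74 had too few reads to be tested in 2ngA.

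Of the genes tested, higher DEGs made up 0.681% in 2ngA, 0.736% in 2ngB, 0.758% in 1ngA and 0.748% in 1ngB. Against these shares, 2 of 5 class II genes tested were DEGs in 2ngA, 3 of 6 in 2ngB, 3 of 6 in 1ngA and 3 of 6 in 1ngB. These counts rested on single mice. Without GFAP-IL6 mouse 3, the deepest sample, they were 0 in 2ngA, 1 in 2ngB, 1 in 1ngA and 0 in 1ngB. Without WT mouse 2 they were 0 in 2ngA and 1 in 2ngB, and without GFAP-IL6 mouse 1 the count in 2ngA was 1. In the summed libraries H2-Aa, H2-Ab1 and H2-Eb1 were DEGs with any mouse left out.

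**Figure D2:**
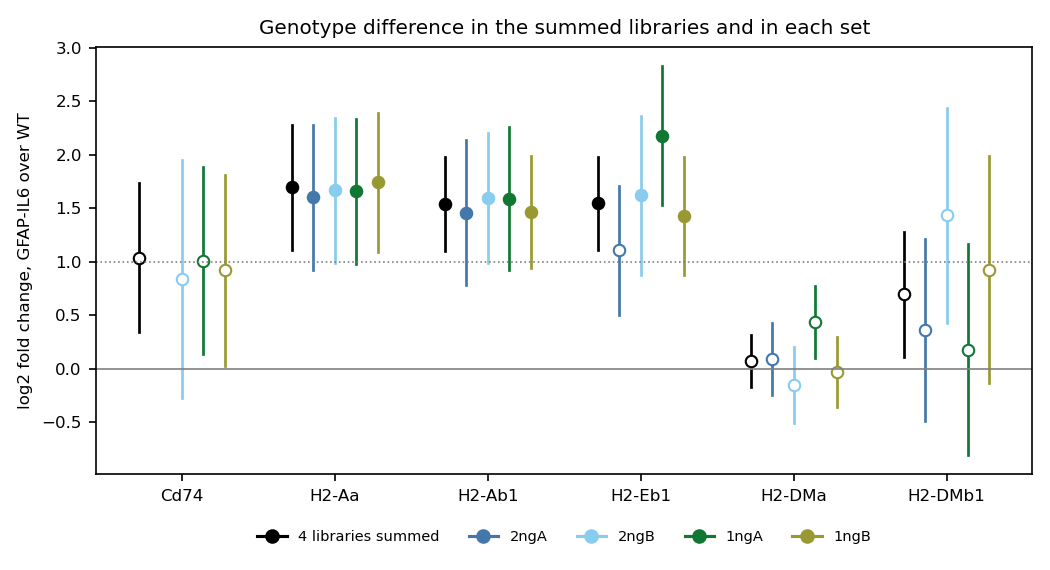
Log2 fold change of GFAP-IL6 over WT for the 6 class II genes tested, with 95% intervals, in the 4 libraries summed per mouse and in each set, with filled points for DEGs and the fold change threshold dotted. H2-Aa and H2-Ab1 are filled throughout, H2-Eb1 is open in 2ngA, and Cd74, H2-DMa and H2-DMb1 are open throughout.

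Cd74 differed between the cDNA amounts of the tagmentation reaction, and the other class II genes did not detectably differ. Cd74 was at 1.6, 1.06 and 0 CPM with 2 ng in WT mice 1 to 3 and at 2.99, 2.75 and 1.13 CPM with 1 ng. In GFAP-IL6 mice 1 to 3 it was at 2.27, 2.72 and 2.60 CPM with 2 ng and at 4.16, 4.08 and 5.88 CPM with 1 ng. It was thus lower with 2 ng in 6 of 6 mice, and WT mouse 3 had no Cd74 read in either of its 2 ng libraries. Where mice shared a pool they shared its tagmentation reaction, so they are not separate repeats of the amount. The tests below treat them as separate. The log2 difference of 2 ng from 1 ng was -1.01 (SE 0.21, 95% interval -1.44 to -0.59, adjusted p = 0.000162, edgeR with the mouse in the model), about as large as the genotype difference. Among all genes tested 28.7% differed between cDNA amounts at an adjusted p under 0.05, so a call for 1 of 6 class II genes is near the background. H2-Eb1 was lower with 2 ng in 5 of 6 mice and did not pass (log2 difference -0.32, adjusted p = 0.0641, edgeR).

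Between sets, H2-Ab1 was higher in set B than in set A in 6 of 6 mice. It was at 4.59, 4.81 and 2.15 CPM in set A and at 7.31, 4.91 and 3.96 CPM in set B in WT mice 1 to 3. In GFAP-IL6 mice 1 to 3 it was at 12.3, 8.88 and 14.5 CPM in set A and at 20.1, 13.3 and 17.2 CPM in set B. The differences ranged from slight in WT mouse 2 to large in GFAP-IL6 mouse 1, and the genotypes did not overlap in either set. The log2 difference was 0.45 (SE 0.12, adjusted p = 0.00291, edgeR), and 28.8% of all genes tested differed between sets. The limit from shared pools holds for the tests by set too. The difference between genotypes itself was tested for dependence on cDNA amount and on set. No class II gene passed in edgeR at an adjusted p under 0.05, nor did any gene of the table (0% for cDNA amount and 0% for set). Before adjustment, 2 of 12 such tests of class II genes fell under 0.05, those of H2-DMa and H2-DMb1 by set (adjusted p = 0.846 and 0.931, edgeR). No class II gene passed with DESeq2's size factors or without the filter on low counts either.

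**Figure D3:**
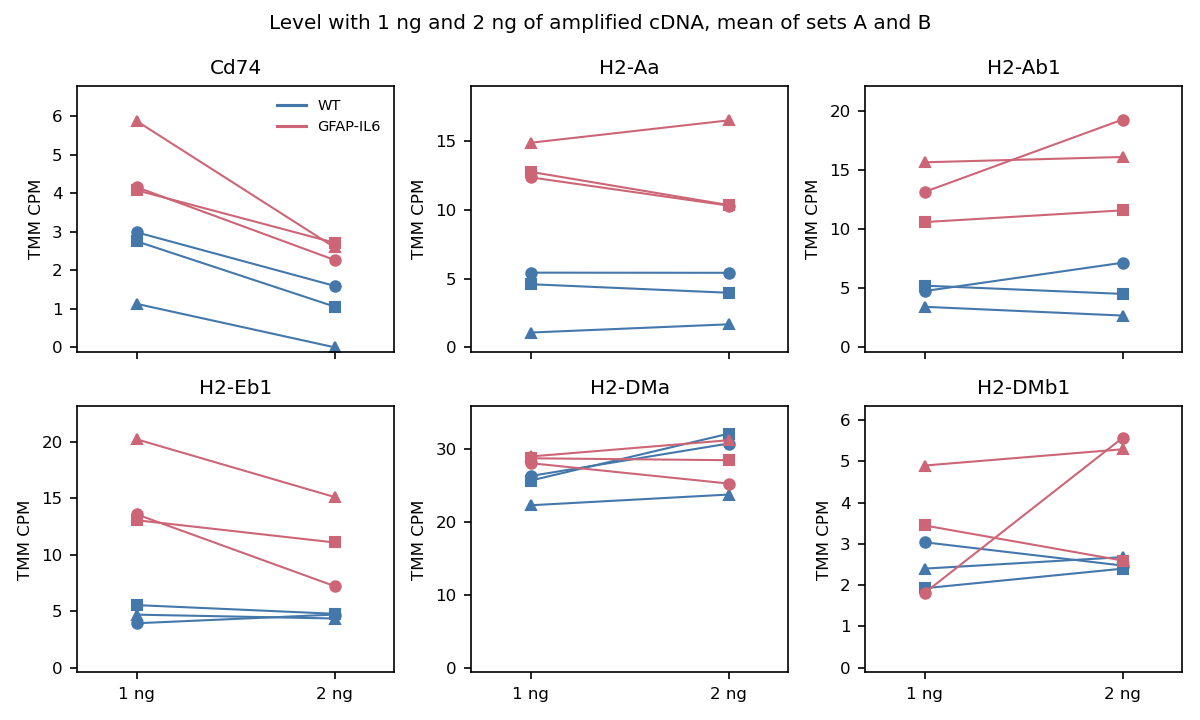
TMM CPM of the 6 class II genes tested with 1 ng and 2 ng of amplified cDNA, as the mean of sets A and B, with 1 line per mouse (WT blue, GFAP-IL6 red, symbols for mice 1 to 3 as circle, square and triangle). All 6 lines fall from 1 ng to 2 ng for Cd74, while lines of the other genes run in both directions.

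The agreement among the 4 libraries of a mouse also differed between genes. The chi-square of the reads of a gene over the 4 libraries of each mouse, divided by its 18 degrees of freedom, is 1 where libraries differ by counting alone. It was 0.638 for H2-Aa, and 2.33 to 2.74 for Cd74, H2-Ab1, H2-Eb1, H2-DMa and H2-DMb1. The reads of H2-Aa thus varied no more than counting error, at 2 to 190 reads per library, and those of the other 5 genes varied more than that.

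Beyond the 7 genes, a list of 32 genes around class II presentation was examined, of which 31 were in the table and 26 passed the filter. Of these 26, 4 were DEGs, all higher in GFAP-IL6 mice. Of all genes tested, 1.2% were higher and 0.0274% lower DEGs. A log2 fold change above 0 was found for 20 of 26, against 48.1% of all genes tested. The median log2 fold change of the list was 0.32. Of the 4 genes that process antigen and invariant chain, Ctss and Ifi30 were DEGs. Ctss, which encodes cathepsin S, was at 166, 170 and 146 CPM in WT mice 1 to 3 and at 489, 576 and 623 CPM in GFAP-IL6 mice 1 to 3. The genotypes were widely separated, and the log2 fold change was 1.81 (SE 0.10, adjusted p = 8.73e-08, edgeR). Ifi30, which encodes the lysosomal thiol reductase GILT, was at 1.67, 2.49 and 1.71 CPM in WT mice and at 8.65, 14.7 and 14.4 CPM in GFAP-IL6 mice. Again no mouse of one genotype reached the other, and the log2 fold change was 2.69 (SE 0.24, adjusted p = 1.05e-05, edgeR). Lgmn, which encodes legumain, passed the adjusted p but not the fold change threshold (log2 fold change 0.49, adjusted p = 0.00513), and Ctsl, which encodes cathepsin L, passed neither (log2 fold change 0.41, adjusted p = 0.0865).

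Among genes upstream of Ciita, Socs3, an inhibitor of cytokine signalling, was a DEG (log2 fold change 1.62, adjusted p = 0.033, edgeR) at 1.04 to 1.31 CPM in WT and 2.0 to 5.29 CPM in GFAP-IL6 mice. Ifngr1, a chain of the interferon gamma receptor, passed the adjusted p only (log2 fold change 0.73, adjusted p = 0.00468), and Ifngr2, the other chain, did not (0.04, adjusted p = 0.97). Irf1 and Socs1, both targets of interferon gamma, had log2 fold changes of 0.69 and 1.14 that did not pass (adjusted p = 0.0791 and 0.129). Ifng itself was listed at 0 reads in all 24 libraries. Of the 7 genes of the promoter complex, Rfx5, Rfxank, Rfxap, Nfya, Nfyb, Nfyc and Creb1, none was a DEG by edgeR and none had an unadjusted p under 0.05, and their log2 fold changes ran from -0.23 to 0.29. Neither March1 nor March8, ubiquitin ligases that remove class II molecules from the surface, was a DEG (0.06 and 0.10).

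Of the co-stimulatory genes, Cd86, a ligand of CD28 on T cells, was a DEG (log2 fold change 1.12, adjusted p = 0.0121, edgeR) at 2.65 to 3.54 CPM in WT and 5.38 to 7.71 CPM in GFAP-IL6 mice. The genotypes did not overlap in Cd86. Icosl and Cd274 did not pass (log2 fold changes 0.38 and 0.76), and Cd80 and Cd40 were too low to be tested. Of the other class II genes, H2-Oa and H2-Ob, the chains of the H2-DM inhibitor H2-O, did not pass (0.36 and -0.50), and H2-Eb2 was at 0 reads throughout. The count of 4 DEGs rested in part on single mice, since without WT mouse 1, WT mouse 2 or GFAP-IL6 mouse 3 it was 2, with Ctss and Ifi30 left in each case.

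**Figure D4:**
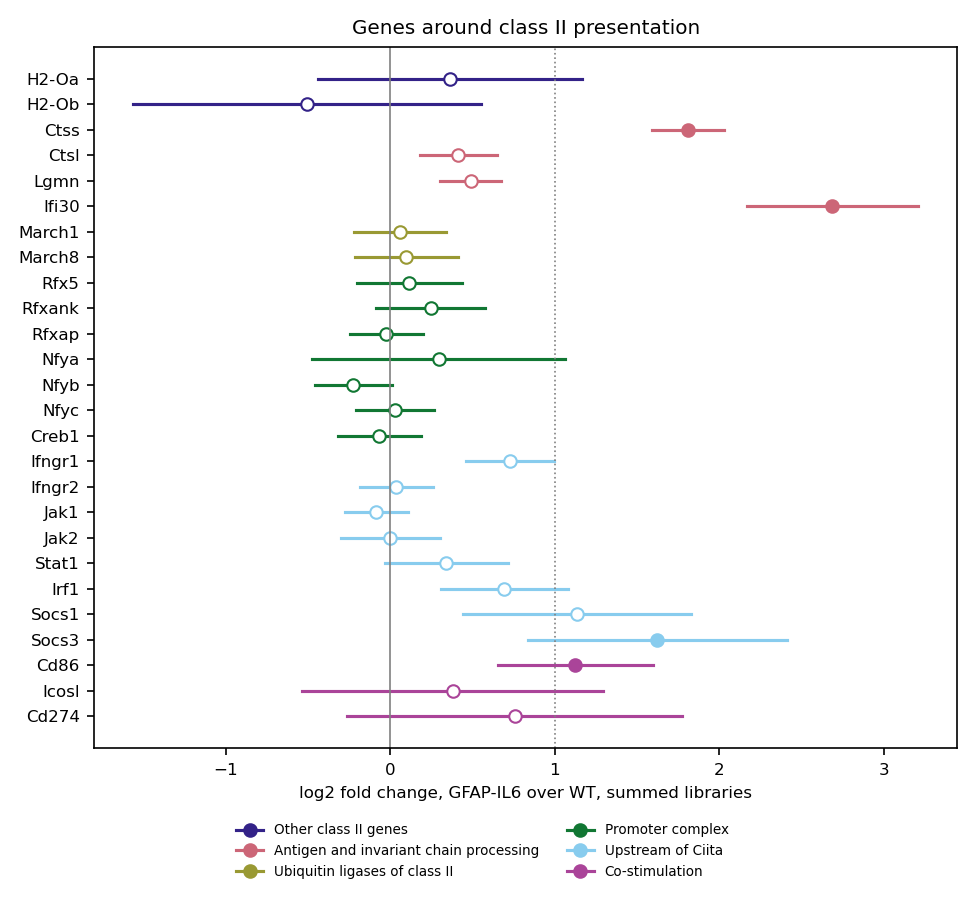
Log2 fold change of GFAP-IL6 over WT in the summed libraries, with 95% intervals, for the 26 genes around class II presentation that passed the filter, coloured by group, with filled points for DEGs. Ctss, Ifi30, Socs3 and Cd86 are filled, and the genes of the promoter complex all lie near 0.

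Markers of the cells that can carry class II were measured in the same libraries. Of 6 microglia markers, Aif1 was a DEG (log2 fold change 1.22), where 1.2% of all genes tested were higher DEGs. Cx3cr1, Csf1r and Tmem119 passed the adjusted p with smaller log2 fold changes of 0.72, 0.64 and 0.59. P2ry12 and Sall1 did not pass (-0.02, adjusted p = 0.985, and 0.20, adjusted p = 0.89, edgeR). Summed over the 6 markers the level was 206.2 to 226.1 CPM in WT and 298.5 to 376.5 CPM in GFAP-IL6 mice, a ratio of means of 1.54. The summed level of H2-Aa, H2-Ab1 and H2-Eb1 was 15.6, 14.5 and 9.06 CPM in WT mice 1 to 3 and 37.8, 34.9 and 49.4 CPM in GFAP-IL6 mice 1 to 3, a ratio of means of 3.12. Per 100 CPM of the microglia markers the chains were at 7.57, 6.42 and 4.36 CPM in WT and at 12.7, 11.2 and 13.1 CPM in GFAP-IL6 mice, so the genotypes remained apart after this scaling. Per 100 CPM of P2ry12 alone they were at 16.2 to 29.4 CPM in WT and 68.3 to 83.9 CPM in GFAP-IL6 mice. P2ry12 did not differ between genotypes, whereas 5 of the 6 markers had a log2 fold change above 0. Scaling by it therefore restates the unscaled difference. The ratio of means was 3.13 per P2ry12 and 2.02 per the 6 markers.

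None of the 6 border macrophage markers was a DEG, and their summed level overlapped between genotypes, at 12.5 to 14.9 CPM in WT and 10.9 to 14.4 CPM in GFAP-IL6 mice. Lyve1 had an unadjusted p of 0.0451 in edgeR, with a negative log2 fold change of -1.16. Of the 6 dendritic cell markers Xcr1 was at 0 reads throughout, Clec9a had 1 read in all, and Itgax, which activated microglia also express, had 0 reads in each WT mouse and 2, 5 and 21 in GFAP-IL6 mice 1 to 3. Zbtb46 and Flt3 were expressed in every mouse, at 5.27 to 7.58 and 1.77 to 3.12 CPM, and did not pass (log2 fold changes 0.10 and 0.01), and Cd209a was at no more than 0.554 CPM. Of the 5 B cell markers Cd79a, Ms4a1 and Pax5 were each at no more than 0.166 CPM in any mouse. Ighm was at 53.2 to 71.4 CPM and overlapped between genotypes, and Cd79b was at 0.394 to 0.72 CPM in WT and 0.816 to 1.27 CPM in GFAP-IL6 mice, without overlap and without passing (log2 fold change 0.76, adjusted p = 0.715, edgeR). Of the 6 T cell markers Cd3d, Cd3e, Cd3g, Cd8a and Trac were at no more than 0.519 CPM, with the highest value for Cd3g in GFAP-IL6 mouse 3. Cd3d was at 0 to 0.052 CPM in WT and 0.144 to 0.208 CPM in GFAP-IL6 mice, without overlap. Cd4 was at 0.394 to 3.27 CPM in WT and 0.623 to 1.97 CPM in GFAP-IL6 mice and did not pass (log2 fold change -0.24, adjusted p = 0.959, edgeR). The 3 monocyte markers summed to 0.26 to 0.72 CPM in WT and 0.949 to 2.0 CPM in GFAP-IL6 mice. Of these, Ccr2 overlapped between genotypes and did not pass (log2 fold change 1.26, adjusted p = 0.668, edgeR). Plac8, at 0 to 0.156 CPM in WT and 0.316 to 0.528 CPM in GFAP-IL6 mice, did not overlap, and Ly6c2 did. The 3 neutrophil markers and the 4 haemoglobin genes overlapped between genotypes. Only 2 of 6 dendritic cell, 2 of 5 B cell and 1 of 6 T cell markers passed the filter. So did 1 of 3 monocyte and 2 of 3 neutrophil markers, and the rest of these 5 lists could not be called. No gene of these lists that was tested, other than Aif1, was a DEG. The part of any of these cells in the class II result was not tested.

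**Figure D5:**
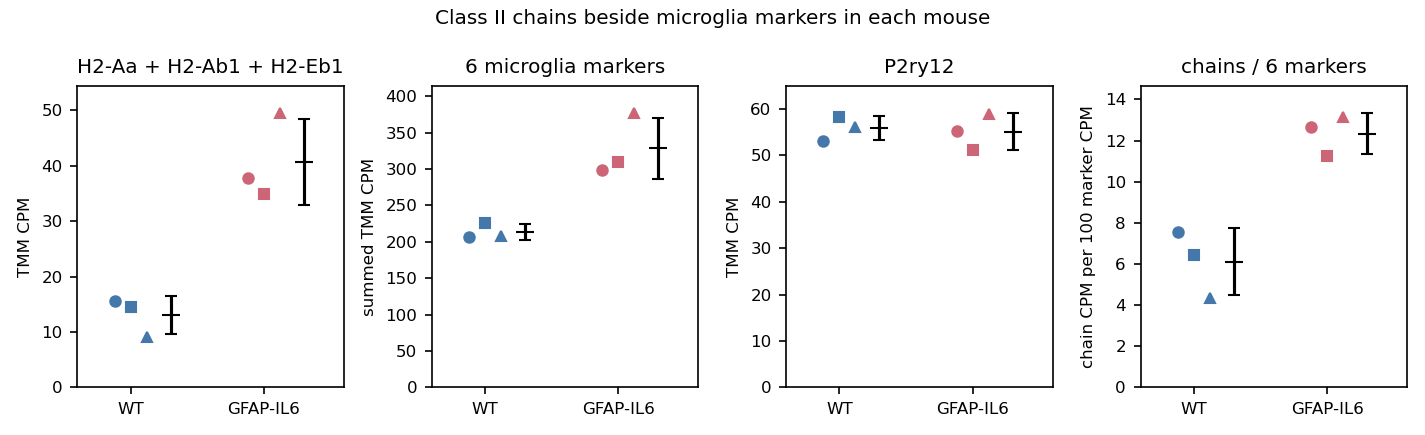
Levels in each mouse (WT blue, GFAP-IL6 red, black bars for the mean and SD of 3 mice) of the summed H2-Aa, H2-Ab1 and H2-Eb1, the 6 microglia markers, P2ry12 alone, and the chains per 100 CPM of the 6 markers. The genotypes overlap in P2ry12 and are apart in the other panels.

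The choroid plexus markers Ttr, Kl and Folr1, which were highest in WT mouse 3, did not pass between genotypes. Without WT mouse 3, H2-Aa had a log2 fold change of 1.43 (adjusted p = 0.000497), H2-Ab1 of 1.39 (adjusted p = 0.00068) and H2-Eb1 of 1.54 (adjusted p = 0.000882), all by edgeR. Thus the 3 chain genes stayed DEGs without the mouse that had the lowest H2-Aa and H2-Ab1. Within each genotype the order of the mice in H2-Aa and in Cd74 was also that of their total reads, from WT mouse 3 to WT mouse 1 and from GFAP-IL6 mouse 1 to GFAP-IL6 mouse 3. GFAP-IL6 mouse 1 had 9534116 reads and 11.4 CPM of H2-Aa. WT mice 1 to 3 had 19098634, 18236001 and 7852743 reads and 5.36, 4.32 and 1.31 CPM. A part of depth in the genotype difference was not tested beyond the fit at equal totals that follows. After all mice had been down-sampled to equal totals the log2 fold changes were 1.86 for H2-Aa (adjusted p = 0.00215), 1.58 for H2-Ab1 (adjusted p = 0.000193) and 1.4 for H2-Eb1 (adjusted p = 0.00148) in edgeR.

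Across the 6 mice, the genes with a pattern most like that of the class II genes were Slc38a9, Git2, Stat2, Cald1 and Knop1. Likeness was the Pearson correlation of log2(TMM CPM + 1) with the mean standardised level of the 6 class II genes tested, among 8976 genes with a mean of at least 10 CPM, and it ran from 0.976 for Knop1 to 0.993 for Slc38a9. With 6 mice that differ in depth and 8976 genes, such values are a description only. Stat2, a mediator of interferon signalling, was at 9.47, 9.25 and 7.74 CPM in WT mice 1 to 3 and at 10.9, 12 and 14.2 CPM in GFAP-IL6 mice 1 to 3. The 5 had log2 fold changes of 0.20 to 0.48 between genotypes and adjusted p of 0.207 to 0.605 in edgeR. The mean standardised level of the class II genes was lowest in WT mouse 3 (-1.36) and highest in GFAP-IL6 mouse 3 (1.19). The 5 genes had the same lowest and highest mouse, which follows from their choice by likeness to this mean level.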

How the data were processed

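RNA of the frontal cortex of 3 WT and 3 GFAP-IL6 mice was measured in 24 libraries. The authors trimmed polyA stretches, aligned the reads to mm10 with STAR 2.4, counted uniquely aligned reads on GENCODE vM6 genes with featureCounts 1.6.3, and deposited raw read counts per gene and library without normalization or correction for gene length. The strand setting of the counting is not given in the sources used here. The genes and lists described here were chosen with earlier results of these data known.

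Samples were grouped by their labels. Counts of the 4 libraries of each mouse were summed, and edgeR 4.0.16 (R 4.3.3) was used for the genotype comparison, by its quasi-likelihood test with TMM and filterByExpr, both summed and within each set. The mice are separate animals, and the 4 libraries of a mouse are technical. Where edgeR bounded a p-value by that of a Poisson fit, no standard error is given. cDNA amount and set were tested over 24 libraries with the mouse in the model and without a term for the pools. Standard errors were derived from the F statistics. The test was checked on simulated data with known changes. DEGs had an adjusted p under 0.05 and a log2 fold change beyond 1 in either direction. Alternatives were DESeq2 1.42.0, its size factors in edgeR, no filter, at least 10 counts in every sample, a block of same-numbered mice, each mouse left out, other thresholds, equal totals by down-sampling, and voom in limma 3.58.1 with mouse as a random effect.

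The genes named were all 7 class II genes, each DEG of the pathway and marker lists, list members at or near 0, Il6 and Gfap, and the 5 genes most alike over the mice. Gfap had a log2 fold change of 2.44 (adjusted p = 1.59e-06). Some marker genes are not reported here. Other genes of the lists were named with their values known. H2-Ea-ps and the promoters of H2-Ab1, Cd74 and Ciita were not analysed here. Copies were sought with minimap2 2.31-r1302, as alignments of at least 100 nt at 85% identity. The last 300 nt of H2-Eb1 also aligned to H2-Eb2 (89.4% over 169 nt).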

Additional observations from a re-analysis of the deposited data

How the results depend on the processing

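Of 96 recomputed counts of called genes, 76 stayed within 1.5 times the reported count. In the summed libraries the count of 3 class II genes was 3 or 4 under the alternatives, and H2-Aa, H2-Ab1 and H2-Eb1 passed in 13 of 13 each, with log2 fold changes of 1.43 to 2.02, 1.39 to 1.74 and 1.27 to 1.67. H2-Aa passed narrowly with DESeq2's own test (adjusted p = 0.0455). The highest adjusted p of H2-Ab1 and H2-Eb1 were 0.00408 and 0.00279, in edgeR without GFAP-IL6 mouse 3. The pathway count of 4 was 2 after down-sampling to equal totals, and 2 to 4 with a mouse left out. The reported 2 class II genes in 2ngA became 0 with DESeq2's own test, and 1 under the thresholds of 0.1 and 1.5 or after down-sampling. The requirement of at least 10 counts in every sample left 1 class II gene to test and a count of 0 in each of 2ngA, 2ngB and 1ngA. Down-sampling left 1 in 1ngA, and the thresholds of 0.1 and 1.5 left 1 in 1ngB. With a mouse left out the counts were 0 to 2 in 2ngA, 1 to 3 in 2ngB, 1 to 3 in 1ngA and 0 to 3 in 1ngB. H2-DMa changed sign without WT mouse 3, to -0.003781 in log2 fold change, and was at most 0.1291 with another mouse left out, without passing in any fit. Mice of the same number share only that number. Deviations of same-numbered mice from their genotype means had correlations of -0.05, -0.03 and -0.03. A replicate block on that number left 1 class II gene, H2-Ab1, in 2ngB and changed no other count of class II genes. Ciita, untested in the reported fit, did not pass without the filter (adjusted p = 0.851) or with DESeq2 (adjusted p = 1). Low counts limit Cd74, H2-DMb1 and Ciita, with at most 68, 68 and 6 reads per library. Causes of these changes were not tested beyond the fewer genes or mice that an alternative leaves.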
